A study of Mus musculus with 8 samples.

Results

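The Notch pathway of CD8+ T cells was followed through 8 genes named by symbol on the array: *Dtx1*, *Notch1*, *Notch2*, *Rbpj*, *Hes1*, *Nrarp*, *Lfng* and *Adam10*. They are 8 of the 18193 genes measured, and 18 probe sets name them alone. The main probe set of a gene is the one that averaged highest on the 8 arrays. *Dtx1* was selected on its log2 values in these same arrays, low in tumor and after IR, so its levels are given as a description with no test. The other 7 genes were tested.

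The study asked how T cells inside a tumor differ from T cells of lymph nodes (LN), and how each population responds to ionizing radiation (IR). CD3+CD8+CD44+CD62L- T cells, a surface phenotype of effector and effector memory cells, were sorted from 4 groups with 2 arrays each: tumor IR, tumor no IR, LN IR and LN no IR. All cells came from female C57BL/6 mice, injected under the skin at 6-8 weeks of age with MC38 cells, a mouse colon carcinoma line. IR mice received 5 Gy to the whole body 5 h before the organs were taken, and no IR mice received none. Each array held RNA pooled from 4 mice, and tumor and LN cells of a treatment came from the same pooled mice. The 2 arrays of a group came from 2 independent experiments, so the spread is that between pools and not between single animals. Tumors were digested with enzymes and spun in Percoll while LN were disrupted mechanically, so tissue and preparation cannot be told apart.

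In Notch signaling, a ligand on one cell binds a Notch receptor on its neighbor. ADAM10 and then γ-secretase cut the receptor, and the freed intracellular part enters the nucleus, where it joins the DNA-binding protein RBPJ and turns on genes such as *Hes1* and *Nrarp*. In mouse CD8+ T cells Notch receptors are known for promoting effector differentiation, and *Dtx1*, which encodes the E3 ubiquitin ligase Deltex1, is a Notch target and is known as an NFAT target linked to T cell anergy.

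RBPJ binds DNA at the core TGGGAA, so the promoters of the members were read for these letters. The RefSeq table (build GRCm38.p6) gave windows from 250 bases before to 50 bases after a start for 7 members, 8 windows in all. The 3 windows below are shown because *Dtx1* had the widest range of levels among the members, *Rbpj* was the member that passed the test, and *Lfng* carried the core more than once. Capitals mark TGGGAA, or TTCCCA where it lies on the other strand. The *Dtx1* window is chr5:120711620-120711919 on the minus strand, that of *Rbpj* chr5:53590096-53590395 on the plus strand, and that of *Lfng* chr5:140607091-140607390 on the plus strand.
Dtx1: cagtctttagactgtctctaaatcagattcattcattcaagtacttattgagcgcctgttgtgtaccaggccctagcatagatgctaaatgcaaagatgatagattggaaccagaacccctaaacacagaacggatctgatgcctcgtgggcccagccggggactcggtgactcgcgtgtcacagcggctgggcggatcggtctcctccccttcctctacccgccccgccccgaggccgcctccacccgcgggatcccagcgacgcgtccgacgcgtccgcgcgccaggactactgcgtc
Rbpj: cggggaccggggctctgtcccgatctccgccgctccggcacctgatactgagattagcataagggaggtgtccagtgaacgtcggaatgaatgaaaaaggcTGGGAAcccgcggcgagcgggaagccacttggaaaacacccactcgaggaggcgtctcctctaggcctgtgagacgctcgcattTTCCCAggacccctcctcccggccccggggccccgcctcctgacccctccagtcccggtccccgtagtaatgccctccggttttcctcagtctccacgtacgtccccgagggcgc
Lfng: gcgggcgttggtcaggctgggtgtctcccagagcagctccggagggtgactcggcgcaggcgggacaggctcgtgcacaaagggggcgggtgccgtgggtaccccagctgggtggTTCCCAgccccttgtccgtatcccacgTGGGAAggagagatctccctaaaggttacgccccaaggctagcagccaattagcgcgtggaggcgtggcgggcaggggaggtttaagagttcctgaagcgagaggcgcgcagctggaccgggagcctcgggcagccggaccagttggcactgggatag
The *Rbpj* and *Lfng* windows each held 2 matches and the *Dtx1* window held 0. A second window of *Rbpj*, which overlaps the first, held 1, and those of *Notch1*, *Notch2*, *Nrarp* and *Adam10* held 0. Over all RefSeq windows of this length, 8397 of 32851 (25.6%) held the core on either strand. A match is a description of the letters and not a binding site.

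Values are log2 intensities after RMA, which removes background, gives all arrays the same distribution and combines the probes of a set into 1 value. A difference of 1 is a doubling. The lower quartile of all probe sets lay between 5.38 and 5.59 on the 8 arrays, and values near or below it are dim and carry no exact fold change. Genes were tested with limma, and were called higher or lower where the adjusted p was below 0.1 and the log2 fold change was 1 or more in either direction. SE is the standard error from that model, and ± is the SD of n = 2 arrays. Replicates correlated at 0.992 in tumor IR, 0.993 in tumor no IR, 0.966 in LN IR and 0.982 in LN no IR over all genes. LN arrays therefore had the wider spread. *Cd8a* was between 12.09 and 12.67 and *Cd3e* between 12.14 and 12.63 on all 8 arrays, and 0 of 12 T cell identity genes were called in any comparison between 2 groups. The list was not level, with a median log2 fold change of −0.30 for IR in tumor and −0.36 for IR in LN. *Thy1* was 10.99 and 9.87 in LN IR against 11.80 and 11.87 in LN no IR, while *Cd28* was 11.60 and 11.99 against 11.56 and 11.37.

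Genes known as markers of other cell types were also read in the sorted populations. All 11 measured macrophage and monocyte genes were higher in tumor than in LN without IR, and 10 were with IR. The mean of this list was 8.95 and 10.42 in tumor IR, 10.38 and 11.09 in tumor no IR, 6.21 and 6.53 in LN IR, and 5.99 and 6.40 in LN no IR. Of 10 fibroblast genes, 5 were higher in tumor without IR and 6 with IR, and none was lower. Of 11 B cell genes, 4 were lower in tumor than in LN in each of the 2 tissue comparisons. Of all 18193 genes, 819 were higher in tumor and 189 lower without IR, and 873 higher and 364 lower with IR. In this bulk RNA, fewer cells of a type and less RNA per cell cannot be told apart. The paper gives a high purity for its sorted fractions and reads tissue-remodeling genes such as *Col1a1* as a reprogramming of tumor T cells. By flow cytometry it also found more αM integrin protein, encoded by *Itgam* of the macrophage list. Whether the RNA on these lists came from other cells or from the T cells was not tested. Its part in the results below was not tested either.

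*Dtx1* had its lowest levels in tumor and its highest in LN no IR. Its main probe set was 6.01 and 5.71 in tumor IR, 6.10 and 6.37 in tumor no IR, 8.32 and 7.47 in LN IR, and 10.05 and 10.61 in LN no IR. The 4 groups did not overlap. Their means were 5.86 ± 0.21 in tumor IR, 6.23 ± 0.19 in tumor no IR, 7.90 ± 0.60 in LN IR and 10.33 ± 0.39 in LN no IR, and the step between the tumor groups was the one closest in size to the spread between arrays. The difference between tumor and LN was −4.10 without IR and −2.04 with IR. The difference between IR and no IR was −0.37 in tumor and −2.44 in LN. Tumor levels, from 5.71 to 6.37, were close to the lower quartile, so these sizes are not exact. Whether the response of *Dtx1* to IR depended on tissue was not tested, since the gene was picked for these contrasts.

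**Figure D1:**
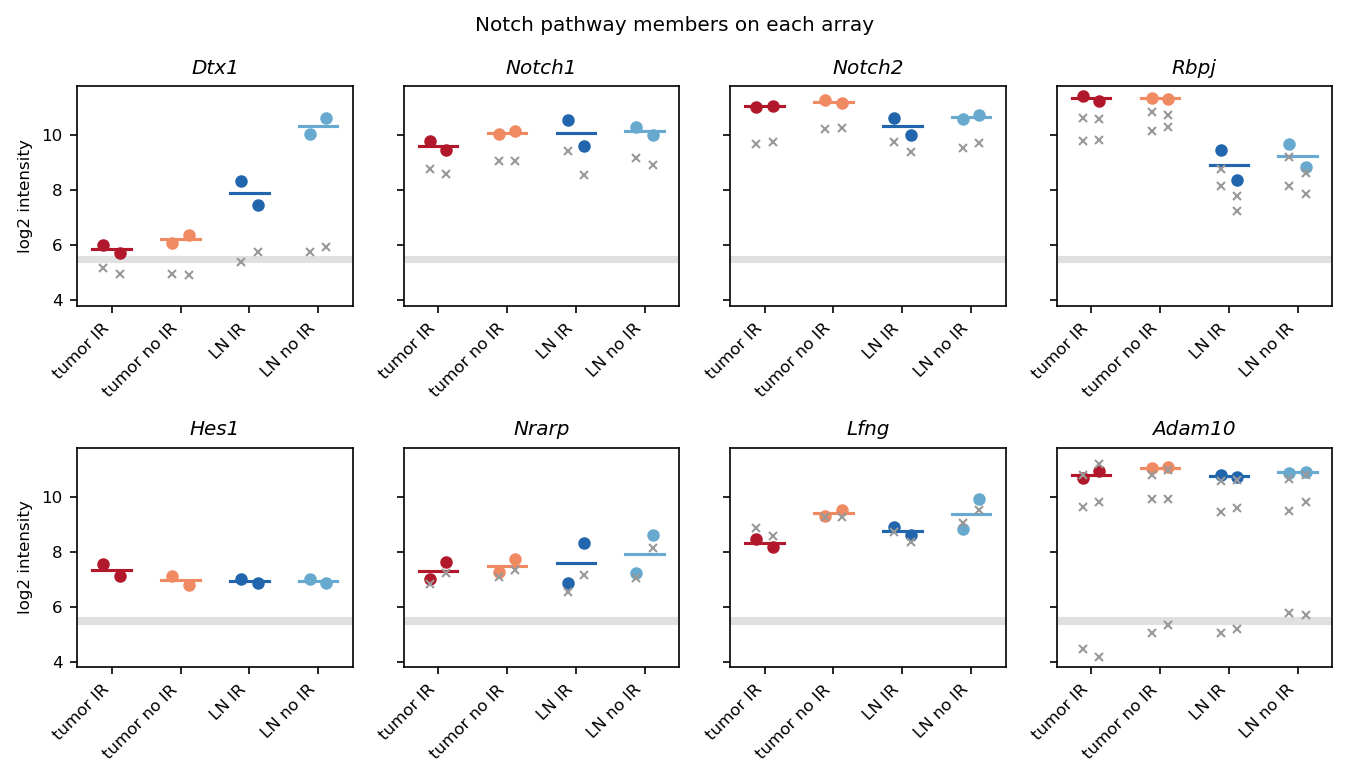
Log2 intensity (vertical axis) of the 8 Notch genes in the 4 groups (horizontal axis, 2 arrays each). Filled points are the main probe set, grey crosses other probe sets of the same gene, bars the mean of the main probe set, and the grey band the range of the lower quartile of the 8 arrays. *Dtx1* spans 5.71 to 10.61 and *Rbpj* lies at 11.25 or above on all tumor arrays and at 9.69 or below on all LN arrays.

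The second *Dtx1* probe set did not show the same sizes. It was 5.19 and 4.97 in tumor IR, 4.97 and 4.92 in tumor no IR, 5.40 and 5.74 in LN IR, and 5.75 and 5.95 in LN no IR. It was dim, below the lower quartile on 5 of the 8 arrays. Its differences were −0.90 between tumor and LN without IR, −0.49 with IR, 0.14 for IR in tumor and −0.27 for IR in LN. LN no IR was again the top group.

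The genes whose levels over the 8 arrays were nearest those of *Dtx1* were *Cd22*, *Ddc*, *Kcna2*, *Rasgrp2* and *Dapl1*. Each profile was centred on its own mean, and likeness is the root-mean-square difference from *Dtx1* over the 8 arrays, against an SD of 1.79 for *Dtx1* itself. It was 0.575 for *Cd22*, an inhibitory receptor of B cells, 0.602 for *Ddc*, an aromatic amino acid decarboxylase, 0.615 for *Kcna2*, a potassium channel, 0.615 for *Rasgrp2*, an activator of the small GTPase Rap1, and 0.736 for *Dapl1*. Among the members, *Lfng* was nearest at 1.60 and *Rbpj* farthest at 2.79. The 5 genes were picked as the nearest of all genes, so any gene outside them, members included, lies farther by construction. A gene level on all 8 arrays would score 1.79 by this measure.

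*Cd22* is one of the B cell genes, and B cells of the mouse also express *Dtx1*. *Cd22* was 5.50 and 5.84 in tumor IR, 5.83 and 6.07 in tumor no IR, 7.73 and 6.19 in LN IR, and 9.15 and 8.83 in LN no IR. The mean of the 11 measured genes of the B cell list, *Cd22* included, was 6.23 and 6.45 in tumor IR, 6.47 and 6.36 in tumor no IR, 7.60 and 7.76 in LN IR, and 7.29 and 8.17 in LN no IR. LN IR lay within the range of LN no IR. Between the LN groups the single genes went both ways. The LN IR arrays lay below the LN no IR arrays for 3 of the 11 genes, *Cd22*, *Cd79b* and *Ighm*, with LN no IR means of 8.99, 8.64 and 11.36. They lay above for 3, *Pax5*, *Cr2* and *Fcer2a*, which were dimmer, with LN no IR means of 6.60, 6.82 and 6.19. The other 5 overlapped. By group mean 4 of the 11 were lower in LN IR and 7 were higher. *Cd79b*, which encodes a signaling part of the B cell receptor, was 6.26 and 6.44 in tumor IR, 6.51 and 6.43 in tumor no IR, 7.81 and 7.88 in LN IR, and 8.19 and 9.10 in LN no IR. *Ms4a1*, which encodes CD20, was 4.78 and 4.95 in tumor IR, 5.06 and 4.83 in tumor no IR, 7.57 and 8.23 in LN IR, and 5.28 and 8.56 in LN no IR. After IR in LN 0 of the 11 genes were called, with a median of 0.37, and the part of B cell RNA in the *Dtx1* values was not tested. These B cell genes were named after their values were seen. The mean of 7 naive and central memory T cell genes was 9.20 and 9.53 in tumor IR, 9.18 and 9.55 in tumor no IR, 11.37 and 11.64 in LN IR, and 10.60 and 11.39 in LN no IR. Of these genes, 4 of 7 were called lower in tumor without IR and 7 of 7 with IR, against 189 and 364 of all 18193 genes. After IR 0 of the 7 were called in either tissue, where 0.0989% of all genes were in tumor and 1.05% in LN.

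**Figure D2:**
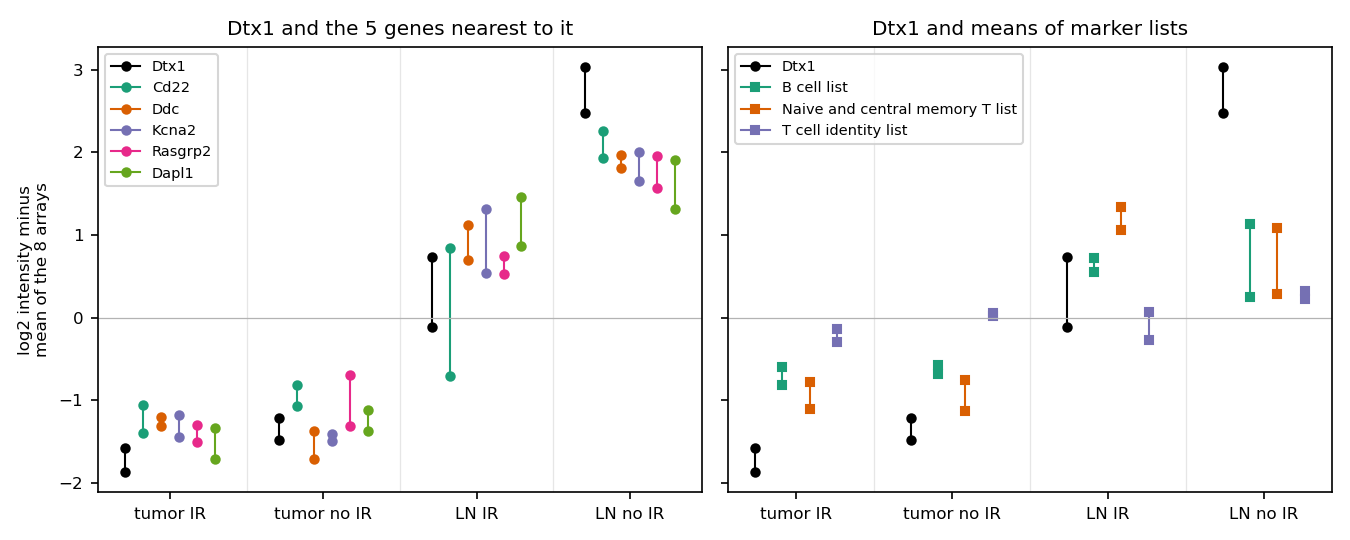
Log2 intensity less each item's mean over the 8 arrays (vertical axis) by group (horizontal axis), with *Dtx1* beside its 5 nearest genes on the left and beside the means of 3 gene lists (B cell, naive and central memory T cell, T cell identity) on the right. Points are the 2 arrays of a group, joined by a vertical line. *Dtx1* and *Cd22* are lower in LN IR than in LN no IR, where the mean of the B cell list is 7.60 and 7.76 in LN IR and 7.29 and 8.17 in LN no IR before centring.

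*Dtx1* was set beside the other genes of its family, which encode related Deltex ubiquitin ligases. Of *Dtx2*, *Dtx3*, *Dtx3l* and *Dtx4*, 0 were called in any comparison. The share of all genes called was 5.54% between tumor and LN without IR and 6.8% with IR. It was 0.0989% after IR in tumor and 1.05% after IR in LN, so 0 calls among so few genes does not set them apart. Between tumor and LN without IR their log2 fold changes were −0.18 for *Dtx2*, 0.37 for *Dtx3*, −0.32 for *Dtx3l* and 0.80 for *Dtx4* (adjusted p = 0.121 by limma). After IR in LN they were 0.00, −0.13, 0.26 and 0.32 in the same order. All of these values were below 1 in size.

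Of the 7 tested members, 1 was called between tumor and LN without IR and 1 with IR, and it was *Rbpj*, higher in tumor, in both. Over all genes 5.54% were called without IR (4.5% higher in tumor) and 6.8% with IR (4.8% higher in tumor). After IR, 0 of 7 were called in tumor and 0 of 7 in LN, against 0.0989% and 1.05% of all genes. At an unadjusted p below 0.05 the counts after IR were 1 in tumor and 0 in LN, where 16.6% and 14.3% of all genes were. The median log2 fold change of the 7 was 0.04 without IR and 0.05 with IR between tumor and LN, −0.19 for IR in tumor and −0.33 for IR in LN. Over all genes the medians were −0.09, 0.06, 0.09 and 0.01. The 2 tissue comparisons use different arrays, but each shares its arrays with the IR comparisons.

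**Figure D3:**
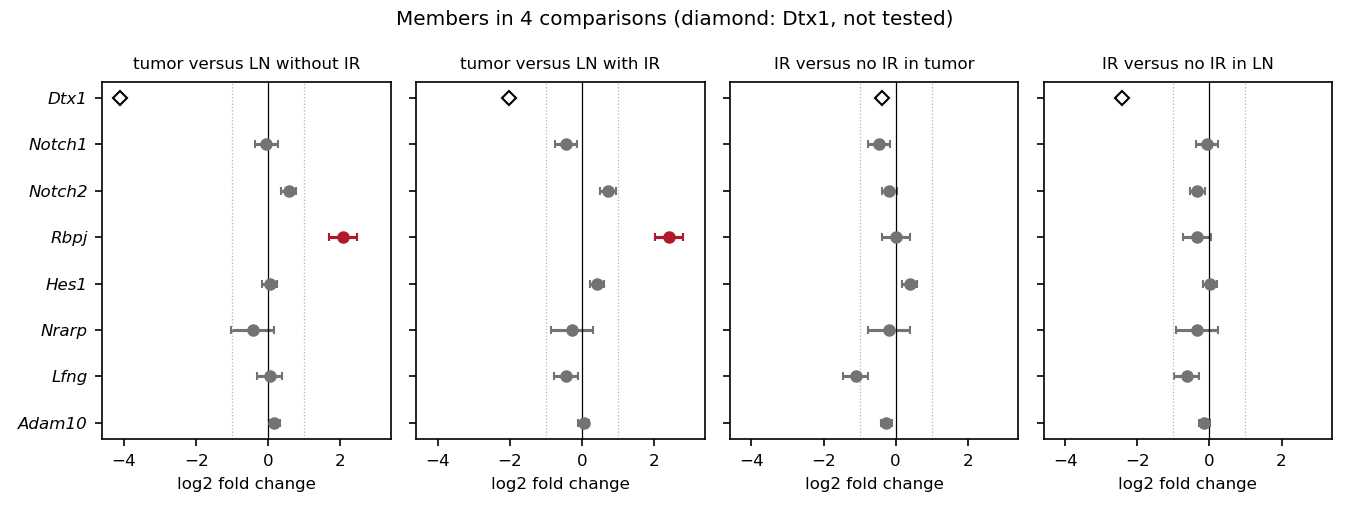
Log2 fold change (horizontal axis) of the main probe set of each member in the 4 comparisons between 2 groups, tumor over LN and IR over no IR. Bars are the limma SE, the dotted lines stand at −1 and 1, red marks a gene called higher, and the diamond is *Dtx1*, which was not tested. *Rbpj* is called at 2.08 without IR and at 2.42 with IR, and no member is called after IR.

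*Rbpj*, the DNA-binding partner of all Notch receptors, was higher in tumor T cells on every probe set. Its main probe set was 11.42 and 11.25 in tumor IR, 11.36 and 11.31 in tumor no IR, 9.45 and 8.39 in LN IR, and 9.69 and 8.82 in LN no IR. All tumor arrays lay above all LN arrays, and the tumor arrays were close together. The means were 11.33 ± 0.12 in tumor IR, 11.34 ± 0.03 in tumor no IR, 8.92 ± 0.75 in LN IR and 9.26 ± 0.61 in LN no IR. The log2 fold change between tumor and LN was 2.08 without IR (SE 0.39, adjusted p = 0.0257 by limma) and 2.42 with IR (SE 0.39, adjusted p = 0.0136). The 2 other probe sets were also called in both comparisons, at 2.19 and 1.90 without IR and at 2.12 and 2.34 with IR.

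IR left *Rbpj* without a call, at −0.00 in tumor (adjusted p = 0.999 by limma) and −0.34 in LN (adjusted p = 0.711). The call between tumor and LN without IR was lost when 1 array was left out: the value was 2.05 without tumor no IR replicate 1 (adjusted p = 0.159), 2.10 without tumor no IR replicate 2 (adjusted p = 0.168) and 1.64 without LN no IR replicate 2 (adjusted p = 0.134). With IR the value was 2.33 without tumor IR replicate 1 (adjusted p = 0.102). Over all alternatives the adjusted p lay between 0.00326 and 0.168 without IR, and between 0.00282 and 0.102 with IR. The macrophage list was also higher in tumor than in LN. Over the tumor arrays the mean of that list ranged from 8.95 to 11.09, and *Rbpj* from 11.25 to 11.42. The part of macrophage RNA in the *Rbpj* values was not tested.

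*Notch1* and *Notch2* encode the receptors best known in T cells. *Notch1* was 9.80 and 9.44 in tumor IR, 10.04 and 10.13 in tumor no IR, 10.54 and 9.59 in LN IR, and 10.29 and 9.99 in LN no IR. LN IR had the widest pair, and tumor and LN overlapped in both tissue comparisons. The log2 fold changes were −0.05 without IR and −0.44 with IR for tumor over LN, −0.47 for IR in tumor and −0.08 for IR in LN, with adjusted p between 0.455 and 0.954 by limma. *Notch2* was 11.03 and 11.06 in tumor IR, 11.27 and 11.17 in tumor no IR, 10.63 and 10.01 in LN IR, and 10.59 and 10.71 in LN no IR. Every tumor array lay above every LN array. With IR the difference of 0.73 had an adjusted p = 0.0857 by limma but was under the fold limit, and without IR it was 0.57 (adjusted p = 0.222). The second *Notch2* probe set gave 0.61 without IR and 0.15 with IR. Leaving out LN IR replicate 1, *Notch2* passed with IR at 1.03 (adjusted p = 0.00588, and up to 0.341 over all alternatives).

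*Adam10*, the protease that makes the first cut after ligand binding, varied least among the members on its main probe set. It was 10.67 and 10.93 in tumor IR, 11.03 and 11.09 in tumor no IR, 10.79 and 10.71 in LN IR, and 10.87 and 10.91 in LN no IR. The 4 log2 fold changes were 0.17 and 0.05 for tumor over LN without and with IR, −0.26 for IR in tumor and −0.14 for IR in LN. None was called on any of its 4 probe sets. The dimmest of them, between 4.16 and 5.78 and below the lower quartile on 6 arrays, gave −0.81 with IR (adjusted p = 0.0345 by limma, under the fold limit).

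*Lfng* encodes Lunatic fringe, a glycosyltransferase that adds sugars to Notch and sets which ligands it answers. It was 8.45 and 8.16 in tumor IR, 9.31 and 9.51 in tumor no IR, 8.90 and 8.60 in LN IR, and 8.83 and 9.93 in LN no IR. The IR arrays lay below the no IR arrays in tumor, and the LN groups overlapped. The log2 fold change for IR in tumor was −1.11 (SE 0.34, adjusted p = 0.295 by limma), which did not pass. It did with the robust fit named in the methods (adjusted p = 0.0404), with only the tumor arrays in the fit (adjusted p = 0.0467) and with array weights (adjusted p = 0.0436), and over all alternatives the adjusted p ranged from 0.0404 to 0.946. For IR in tumor the robust fit called 177 of all genes, only the groups compared 173 and array weights 200, against 18 with the main fit. The second probe set was 8.85 and 8.55 in tumor IR, 9.24 and 9.28 in tumor no IR, 8.72 and 8.34 in LN IR, and 9.04 and 9.53 in LN no IR. On this one the IR arrays lay below the no IR arrays in both tissues, at −0.56 in tumor (adjusted p = 0.320) and −0.75 in LN (adjusted p = 0.211).

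*Hes1*, a transcriptional repressor and classic Notch target, was 7.57 and 7.13 in tumor IR, 7.12 and 6.81 in tumor no IR, 7.02 and 6.85 in LN IR, and 6.999 and 6.85 in LN no IR. The LN groups were almost level with each other. Tumor IR had the highest pair, with log2 fold changes of 0.39 over tumor no IR (adjusted p = 0.390 by limma) and 0.41 over LN IR (adjusted p = 0.269). Neither was called.

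*Nrarp*, a feedback inhibitor that Notch induces, was 6.99 and 7.63 in tumor IR, 7.25 and 7.74 in tumor no IR, 6.85 and 8.31 in LN IR, and 7.24 and 8.62 in LN no IR. Replicate 2 was the higher array in all 4 groups, by 0.64 in tumor IR, 0.49 in tumor no IR, 1.46 in LN IR and 1.38 in LN no IR. The SD of that difference over all genes was 0.27, 0.27, 0.57 and 0.42. The 4 log2 fold changes lay between −0.43 and −0.19 with adjusted p of 0.758 or more by limma, smaller than the spread within the LN groups.

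The wider pathway was read from 48 other measured Notch genes. Between tumor and LN without IR, 1 of 48 was called, the ligand *Jag1*, and 47 were not, where 5.54% of all genes were called. At an unadjusted p below 0.05 by limma there were 3 of the 48 in that comparison, against 17.7% of all genes. With IR 0 were called (7 at an unadjusted p below 0.05), after IR in tumor 0 (5 unadjusted, and 1 with the robust fit) and after IR in LN 0 (9 unadjusted, and 2 with the robust fit). Over all genes 21.7%, 16.6% and 14.3% were at an unadjusted p below 0.05 in these 3 comparisons, and the robust fit called 177 genes after IR in tumor and 504 after IR in LN. The list medians were −0.07 and 0.10 for tumor over LN without and with IR, and −0.07 for IR in each tissue. By role the genes with the highest mean level were *Jag1* for the ligands, *Notch3* for the receptors, *Psenen* for the proteases, *Rfng* for the glycosyltransferases, *Dtx3l* for the ubiquitin ligases, *Ctbp1* for the nuclear partners and *Myc* for the targets.

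*Jag1*, a ligand displayed on the sending cell, was 8.79 and 9.20 in tumor IR, 8.48 and 8.79 in tumor no IR, 8.30 and 7.76 in LN IR, and 7.33 and 7.32 in LN no IR. On this main probe set tumor lay above LN in both comparisons, and LN IR above LN no IR. The log2 fold change between tumor and LN was 1.31 without IR (SE 0.24, adjusted p = 0.0219 by limma). With IR it was 0.97 (adjusted p = 0.0523), just under the fold limit. After IR it was 0.36 in tumor (adjusted p = 0.474) and 0.70 in LN (adjusted p = 0.252). A second probe set was called at 1.37 between tumor and LN without IR (adjusted p = 0.0165) and at 1.38 after IR in LN (adjusted p = 0.0640). The remaining probe set gave 1.07 between tumor and LN without IR (adjusted p = 0.203). With IR these other probe sets gave smaller differences between tumor and LN, 0.34 (adjusted p = 0.428 by limma) and 0.22 (adjusted p = 0.785) in the same order. On the last of them the tumor IR and LN IR arrays overlapped. On the main probe set the call without IR was lost without tumor no IR replicate 2 (1.16, adjusted p = 0.184) and without LN no IR replicate 2 (1.31, adjusted p = 0.114), and the adjusted p of *Jag1* over all alternatives ranged from 0.00646 to 0.203. Macrophage and fibroblast genes were also higher in tumor in this comparison.

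*Notch3*, a receptor that T cells express at earlier stages of development, was 7.21 and 7.05 in tumor IR, 6.43 and 6.86 in tumor no IR, 8.43 and 6.97 in LN IR, and 6.36 and 6.10 in LN no IR. The IR arrays lay above the no IR arrays in both tissues, with 1 LN IR array far above the other. The log2 fold change after IR in LN was 1.47 (adjusted p = 0.206 by limma) and was not called, and with the robust fit it was (adjusted p = 0.0349). On the second *Notch3* probe set, below the lower quartile on 7 arrays, IR and no IR arrays overlapped in both tissues. It gave 0.07 in tumor (adjusted p = 0.902 by limma) and 0.33 in LN (adjusted p = 0.551). *Myc*, a growth regulator and Notch target in T cells, was 8.32 and 8.48 in tumor IR, 9.79 and 9.64 in tumor no IR, 9.31 and 7.87 in LN IR, and 9.73 and 9.85 in LN no IR. The IR arrays lay below the no IR arrays in both tissues, at −1.31 in tumor (adjusted p = 0.296) and −1.20 in LN (adjusted p = 0.258). Neither passed, and both did with the robust fit (adjusted p = 0.0135 in tumor and 0.0300 in LN).

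The roles differed in sign after IR without calls. All 5 ligands had positive log2 fold changes in both tissues, with medians of 0.35 in tumor and 0.26 in LN, where 59.7% and 50.9% of all genes were positive. Of the 11 nuclear partners, the coactivators and corepressors that work with RBPJ, 10 were negative in tumor and 11 in LN, with medians of −0.22 and −0.43. The ligands were also dimmer, with means over the 8 arrays from 5.93 for *Dll4* to 8.25 for *Jag1*. Those of the nuclear partners ran from 7.89 for *Spen* to 11.32 for *Ctbp1*. *Dll3* (5.96) and *Dll4* were near the lower quartile, so their values are not exact. The part of signal level in these signs was not tested. Scaled to T cell identity genes, which moved the median of all probe sets by 0.25 for IR in tumor and 0.38 for IR in LN, the medians of the nuclear partners were 0.04 and −0.05. That scaling adds 1 constant per comparison to every gene, so it leaves the position of these genes relative to the rest as it was. With cyclic loess the medians of the nuclear partners were −0.16 in tumor (9 of 11 negative) and −0.26 in LN (10 of 11), and those of the ligands 0.22 in tumor (4 of 5 positive) and 0.17 in LN (5 of 5). The 2 LN IR arrays also gave different counts. Without LN IR replicate 1, 7 of the 48 genes were called lower after IR in LN (*Mfng*, *Fbxw7*, *Ep300*, *Kat2a*, *Hdac1*, *Myc* and *Gata3*), and without LN IR replicate 2, 1 was called, *Notch3*, higher. Of all genes, 1789 were called without replicate 1 and 259 without replicate 2. These genes were named after their values were seen.

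**Figure D4:**
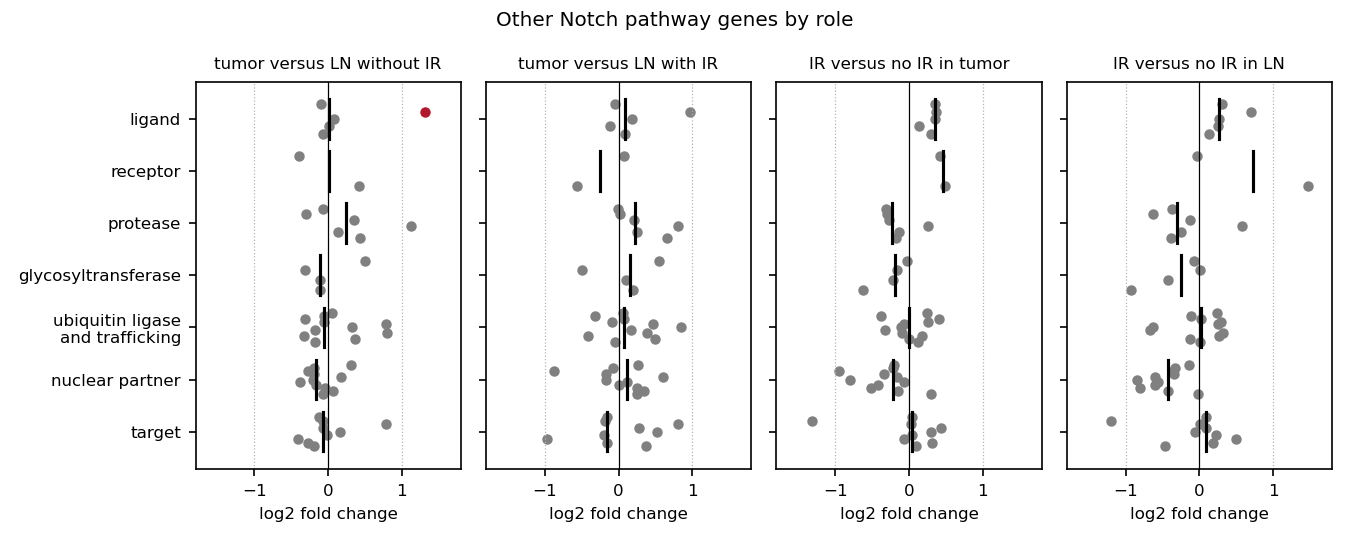
Log2 fold change (horizontal axis) of the other 48 measured Notch pathway genes by role (vertical axis) in the 4 comparisons between 2 groups, tumor over LN and IR over no IR. Points are genes, black bars the median of a role, and red marks a call. The only call is *Jag1* at 1.31 between tumor and LN without IR, and the nuclear partners have medians of −0.22 and −0.43 after IR in tumor and LN.

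Whether IR acted differently in the 2 tissues was tested as the IR effect in tumor minus that in LN. It was called for 0 of the 7 members, 0 of the 48 other pathway genes and 0 of all 18193 genes by limma. At an unadjusted p below 0.05 the counts were 0, 1 and 1024, and with the robust fit 0 members, 0 other pathway genes and 18 of all genes were called. Of all genes, 770 were called without LN IR replicate 1, and leaving out LN IR replicate 2 gave 2. Of the members and the other pathway genes, 0 were called in either case.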

How the data were processed

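RNA of sorted T cells was hybridised to 8 Affymetrix whole-genome mouse arrays. The authors normalized the scans with RMA and deposited log2 values for 45101 probe sets. No RMA version is stated. Of the probe sets, 34945 name 1 gene symbol, 932 several and 9160 none, 64 are controls, and 34741 matched GRCm38.p6 RefSeq by Entrez ID. Groups came from the sample labels. limma 3.58.1 in R 4.3.3 was fitted by least squares to all 4 groups, with 4 residual and 3.13 prior degrees of freedom and Benjamini-Hochberg adjustment over 35877 annotated probe sets. With 2 arrays per group the robust fit of the methods can understate the spread, so least squares was used in its place. The robust fit was run as an alternative. The methods also name SAM, which was not run here. The fit was tested on simulated data. Array number limits the precision.

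The members and gene lists were chosen with earlier results of these data known. Named were all members, every other pathway gene called, the gene of each role with the highest mean, all anergy and NFAT genes, and the 5 genes nearest to *Dtx1*. Dendritic and endothelial lists were also read: 0 of 6 dendritic genes were called, and 1 of 7 endothelial genes was lower in tumor with and without IR. Alternatives covered the fit, thresholds, probe set, dim filter, scaling, replicate block and leaving out each array.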

Additional observations from a re-analysis of the deposited data

How the results depend on the processing

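The members' counts of 1, 1, 0 and 0 and the other pathway genes' counts of 1, 0, 0 and 0 (tumor against LN without IR, with IR, IR in tumor, IR in LN) moved as follows. With no fold limit the pathway count without IR was 2, and with IR 2 members and 4 pathway genes were called. With each gene read from its most variable probe set, the pathway counts were 0 without IR and 1 with IR. Scaled to T cell identity genes they were 3 without IR, 1 with IR and 2 for IR in LN. For IR in tumor the robust fit, only the groups compared and array weights each gave 1 member and 1 pathway gene, and the robust fit gave 2 pathway genes for IR in LN. Leaving out 1 array, members ranged from 0 to 1 (no IR) and from 0 to 2 (IR) between tissues. Pathway genes ranged from 0 to 2 without IR, 0 to 3 with IR, 0 to 1 for IR in tumor and 0 to 7 for IR in LN. The cause was not tested.

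Values that changed sign were uncalled. Scaled to T cell identity genes, *Notch1* was 0.19 without IR and 0.30 for IR in LN, and for IR in tumor and LN *Notch2* was 0.079 and 0.042, *Rbpj* 0.25 and 0.033, and *Nrarp* 0.068 and 0.024, with *Adam10* at 0.24 in LN. With cyclic loess, *Adam10* was −0.026 with IR and 0.045 for IR in LN, *Rbpj* 0.10 for IR in tumor, *Notch1* 0.14 and *Hes1* −0.0076 for IR in LN. The most variable *Adam10* probe set gave −0.56 without and −0.81 with IR. Leaving out 1 array, the ranges that crossed 0 were, without IR, *Notch1* −0.20 to 0.10, *Hes1* −0.12 to 0.20, *Nrarp* −1.12 to 0.26 and *Lfng* −0.51 to 0.58. With IR they were *Notch1* −0.91 to 0.035, *Nrarp* −1.0005 to 0.46 and *Adam10* −0.079 to 0.18. For IR in tumor they were *Rbpj* −0.089 to 0.086 and *Nrarp* −0.51 to 0.13, and for IR in LN *Notch1* −0.55 to 0.40, *Rbpj* −0.87 to 0.19, *Hes1* −0.068 to 0.10 and *Nrarp* −1.08 to 0.38.

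Over the alternatives *Dtx1* stayed between −4.38 and −3.82 without IR and between −2.46 and −1.61 with IR for tumor over LN, and between −0.52 and −0.12 for IR in tumor and −2.86 and −2.02 for IR in LN. *Hes1* had no value with the dimmer 50% of probe sets left out. Of all genes, 873 of 1237 calls with IR and 143 of 191 after IR in LN were higher, against 1122 of 1383 and 417 of 433 scaled to T cell identity genes. The labels do not say that a replicate number marks an experiment, and deviations correlated at 0.43 between the tumor groups and 0.43 between the LN groups but from −0.14 to 0.07 across tissues. The numbers were therefore not taken to pair the samples. With the replicate block the counts were 1 member and 1 pathway gene without IR, 1 and 0 with IR, and 0 for IR in each tissue.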

Other observations

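Deltex1 is known in mouse T cells beside a group of NFAT-linked anergy genes, and 9 of these were read. Those called by limma were *Rnf128*, higher in tumor, and *Dgka*, lower in tumor. Of all genes, 5.54% were called between tumor and LN without IR, 6.8% with IR and 1.05% after IR in LN. *Rnf128*, which encodes the anergy-related ubiquitin ligase GRAIL, was 8.47 and 8.85 in tumor IR, 7.93 and 8.33 in tumor no IR, 6.55 and 6.53 in LN IR, and 4.86 and 4.18 in LN no IR. By group mean its groups ran in the reverse order of those of *Dtx1*, with tumor IR highest and LN no IR lowest. The log2 fold change was 3.61 without IR (adjusted p = 0.000682) and 2.11 with IR (adjusted p = 0.00524) between tumor and LN, and 2.02 after IR in LN (adjusted p = 0.0302). LN no IR lay below the lower quartile, so the sizes are not exact. The call after IR in LN was lost with only the groups compared (adjusted p = 0.436), with array weights (adjusted p = 0.160) and without LN no IR replicate 2 (1.68, adjusted p = 0.118), and the second probe set gave 0.73 (adjusted p = 0.280).

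*Dgka*, a diacylglycerol kinase that dampens T cell receptor signaling, was 10.02 and 9.88 in tumor IR, 10.11 and 10.06 in tumor no IR, 11.67 and 11.79 in LN IR, and 11.48 and 11.63 in LN no IR. It was lower in tumor without IR (−1.47, adjusted p = 0.00201 by limma) and with IR (−1.78, adjusted p = 0.000923), and both calls held in all 19 alternatives. *Egr2*, *Egr3*, *Cblb*, *Nfatc1*, *Nfatc2*, *Nr4a1* and *Itch* were not called in any comparison. The largest values among them were 1.25 for *Nr4a1* (adjusted p = 0.135) and −1.06 for *Egr2* (adjusted p = 0.343), both after IR in LN, and *Itch* was 0.85 with IR between tumor and LN (adjusted p = 0.0397, under the fold limit).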
